A study of Mus musculus with 56 samples.

Results

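The genes described here are 39 genes of the DNA replication machinery, chosen by name: the Mcm2 to Mcm7 helicase, Mcm10 and the GINS subunits, the origin licensing factors Cdc6, Cdt1 and Orc6 with the licensing inhibitor Gmnn, the polymerases and primase, the sliding clamp with its loader, Fen1 and Lig1, the single-strand binding proteins, the enzymes that make deoxynucleotides, and both large subunits of chromatin assembly factor 1. All 39 symbols are rows of both count tables, which list 19791 genes for experiment 1 and 24421 for experiment 2. In experiment 1, 38 of them have at least 10 counts and 36 passed the filter on low counts (Pold1 has 0 counts there, and Rfc4 and Pole2 stayed below the filter), and in experiment 2 all 39 passed. CD4 T cells from C57BL/6 spleens were taken without activation or were activated in culture with beads carrying antibodies to CD3 and CD28, with no cytokine added, and RNA was read at the 3′ ends of transcripts in 56 libraries of 19 groups. Experiment 1 has 6 groups of 3 libraries: naive cells and mature cells without activation, and cells from cultures of 250000 per ml, in 200 µl wells, sorted as CD62L positive or CD62L negative at 48 or 72 h. Experiment 2 has naive cells, cells cultured in 1 ml wells from 1000000 per ml (the high concentration) or from 62500 per ml (the low concentration) for 18, 30, 48 or 72 h, and CD44 positive cells from cultures of 250000 per ml sorted as CD62L positive or negative at 48 or 72 h, with 3 libraries per group and 2 for the low concentration at 72 h. All activated groups had the beads, so no group separates their effect from that of time in culture.

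DNA is copied from origins that are licensed in G1 phase, when Orc, Cdc6 and Cdt1 load the Mcm2 to Mcm7 ring, and that fire in S phase, when Cdc45 and GINS turn the ring into an active helicase. Polymerase alpha with primase lays down primers, polymerases delta and epsilon extend them on the Pcna clamp loaded by replication factor C, and Fen1 and Lig1 finish the lagging strand. Resting naive T cells sit outside the cycle and make little of this machinery, and many of its genes are known targets of E2F transcription factors.

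For that reason the RefSeq promoter windows of the members (build GRCm38.p6, 250 bases before to 50 after the annotated start) were searched on both strands for the letters TTTCCCGC, TTTCGCGC, TTTGCCGC and TTTGGCGC. A window was in the table for 31 of the 39 members, and 12 of the 31 (38.7%) held at least 1 match, against 704 of the 27025 genes with a window (2.6%). For the CCAAT box, searched as CCAAT, the shares were 61.3% of the members and 41.1% of all genes, for CACGTG 22.6% and 8.09%, and for the CHR letters TTTGAA or TTCGAA 19.4% and 21.7%. A match is a description of the letters and not a site shown to be bound. Mcm7 also has a window at another annotated start, which held 0 matches and is not printed. The 250 bases before the start are printed for 4 members with a match there that span the helicase, licensing and priming. Each is read 5′ to 3′ on the strand of the gene, with the matches in capitals, and in Mcm6 the first stretch of capitals is a pair of matches on opposite strands that overlap.
Mcm6, chr1:128359706-128359955, minus strand: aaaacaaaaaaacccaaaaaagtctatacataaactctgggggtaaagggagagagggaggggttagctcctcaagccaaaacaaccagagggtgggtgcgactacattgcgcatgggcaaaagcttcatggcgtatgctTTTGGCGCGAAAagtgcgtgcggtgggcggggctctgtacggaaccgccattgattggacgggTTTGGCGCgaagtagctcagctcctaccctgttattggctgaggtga
Mcm7, chr5:138171884-138172133, minus strand: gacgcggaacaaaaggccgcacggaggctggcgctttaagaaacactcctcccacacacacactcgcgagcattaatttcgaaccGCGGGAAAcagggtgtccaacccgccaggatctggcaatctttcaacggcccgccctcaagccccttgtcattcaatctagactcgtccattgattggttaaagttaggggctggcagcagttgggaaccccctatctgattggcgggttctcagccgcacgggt
Cdc6, chr11:98907901-98908150, plus strand: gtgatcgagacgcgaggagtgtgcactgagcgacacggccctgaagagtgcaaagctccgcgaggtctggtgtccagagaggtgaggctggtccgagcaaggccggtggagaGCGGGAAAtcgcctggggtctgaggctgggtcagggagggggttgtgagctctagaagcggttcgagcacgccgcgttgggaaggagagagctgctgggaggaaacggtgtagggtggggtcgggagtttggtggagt
Pola1, chrX:93632156-93632405, minus strand: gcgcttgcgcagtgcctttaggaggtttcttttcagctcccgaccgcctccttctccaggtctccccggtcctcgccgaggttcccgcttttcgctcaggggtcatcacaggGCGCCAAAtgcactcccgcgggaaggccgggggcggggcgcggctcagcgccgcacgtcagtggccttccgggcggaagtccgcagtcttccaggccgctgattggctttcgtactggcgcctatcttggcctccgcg

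Levels are counts per 1000000 counts (CPM) after TMM scaling, with each experiment scaled on its own. They compare a gene between groups and not one gene with another, since 3′ counts depend on each gene's transcript end. Library totals were 58750 to 1738555 counts in experiment 1 and 587118 to 3359875 in experiment 2, and the lowest belongs to naive replicate 1 of experiment 1. Tests are edgeR's quasi-likelihood tests over all genes with Benjamini-Hochberg adjustment, and a gene is called at an adjusted p under 0.05. The sources used here do not give whether libraries of a group came from separate mice or cultures, and p-values then reflect only how these libraries vary, which may be technical. Of 10 T cell markers, 9 are in the tables and were detected in every group of experiment 2. In bulk RNA, fewer cells in S phase and less replication RNA per cell cannot be told apart. Libraries of experiment 2 carry a further number, 1 or 2, in their titles, which the sources used here do not explain. Used as a term in the fit, it is estimated only from groups that hold both numbers and taken as the same shift everywhere. Those are the low concentration and CD62L negative cells at 48 h and both sorted fractions at 72 h.

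The members together took 0.0779 to 0.0929% of all counts in the 3 naive libraries of experiment 2. At 18 h this share was 0.35 to 0.371% at the low concentration and 0.57 to 0.619% at the high one. It reached 0.813 to 0.83% at 30 h at the high concentration and then fell to 0.686 to 0.705% at 48 h and 0.313 to 0.336% at 72 h. At the low concentration it was 0.687 to 0.768% at 30 h, 0.735 to 0.762% at 48 h and 0.755 to 0.794% at 72 h. The libraries of both concentrations did not overlap in this share at any of the 4 times, with the high concentration above at 18 and 30 h and below at 48 and 72 h. Members with many counts weigh most in the share. At 48 h the median member differed by -0.123 on the log2 scale. Every high library was then below every low one in 11 members and above in 1, against 16.3% and 19% of all genes. Title numbers also differ between the concentrations at 48 and 72 h, as given below.

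**Figure D1:**
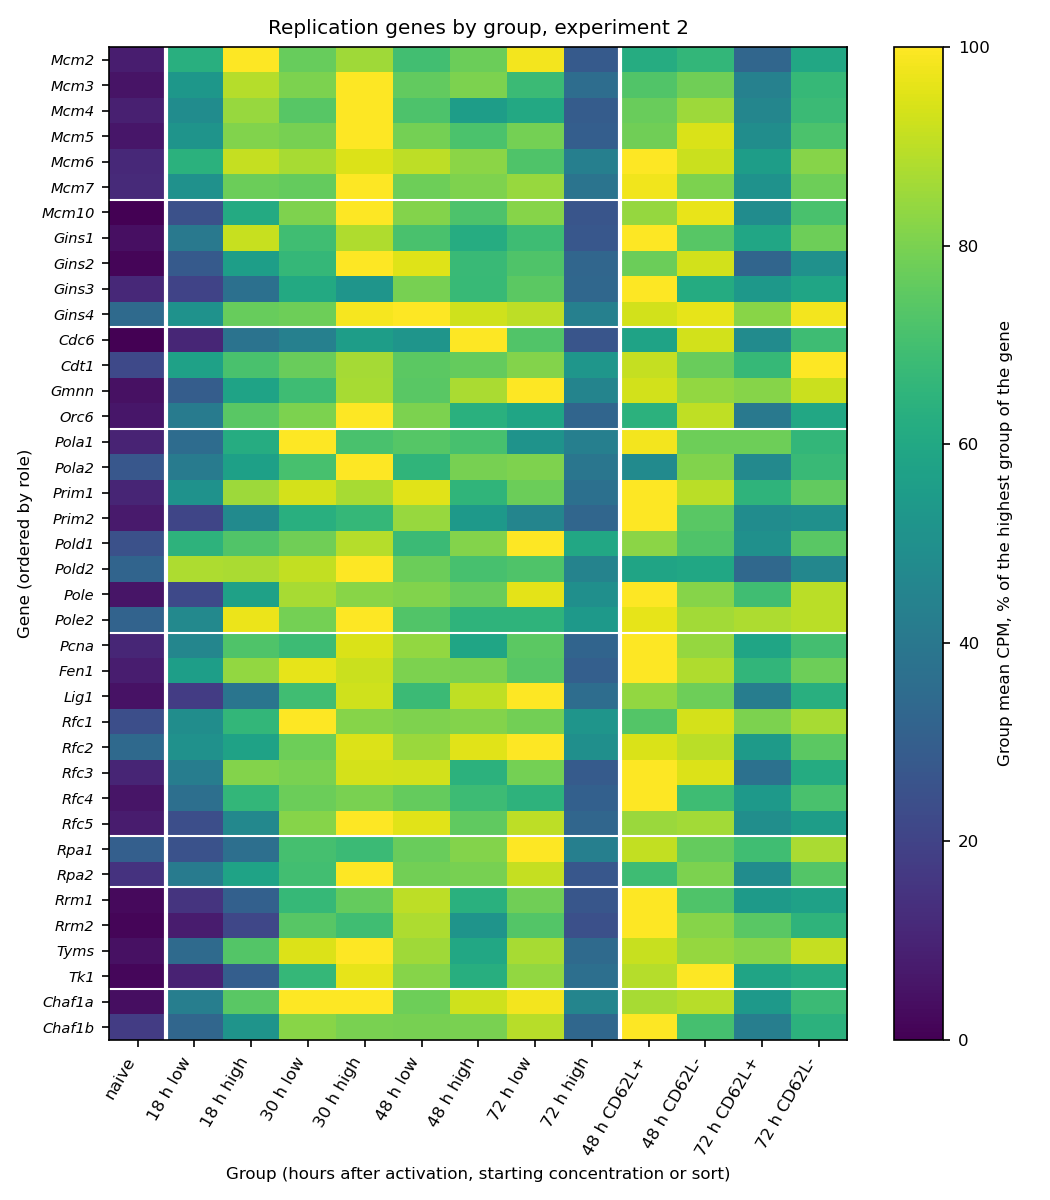
Group mean CPM of each member in experiment 2 as a percent of the highest group mean of that gene, with genes in rows by role (white lines separate the roles) and groups in columns. Naive cells are dark for nearly every gene, and the column for 72 h at the high concentration is darker than that for 72 h at the low concentration.

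Between naive cells and 18 h of activation, 38 of the 39 members rose, in the mean of both concentrations against the naive libraries. The median difference was 2.59 on the log2 scale, or 2.5 with the 2 members that had 0 naive counts (Mcm10 and Cdc6) at their lower bound, and the 37 others ranged from 0.0186 to 4.83. In the same comparison 32.3% of all genes tested rose and 33.6% fell.

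All 6 helicase subunits rose, by 2.42 to 3.72 on the log2 scale. Mcm7 stood at 73.3, 74.0 and 69.1 CPM in the naive libraries, at 329, 304 and 300 CPM at 18 h at the low concentration and at 452, 498 and 479 CPM at the high one. The 3 sets of libraries did not overlap, and the difference between 18 h and naive was 2.42 ± 0.141 (SE; adjusted p = 7.93e-21). Mcm3 rose by 3.72 ± 0.179 and Mcm5 by 3.43 ± 0.174, and they are among the 3 members with the smallest adjusted p.

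Gins2, a subunit of the complex that completes the active helicase, had 3.09, 4.35 and 3.72 CPM in naive cells, 77.4, 86.1 and 69.6 CPM at 18 h at the low concentration and 125, 163 and 170 CPM at the high one. This rise of 4.83 ± 0.208 had the smallest adjusted p of the members (3.53e-26). Mcm10, which binds the helicase as origins fire, had 0 counts in the naive libraries and 203 counts over the 18 h libraries, so it was at least 51.7-fold higher over a floor of 3 counts for the naive group. Gins4, also a GINS subunit, rose least in this role, by 0.857 ± 0.161, from a naive mean of 41.3 CPM.

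All 4 licensing genes rose. Cdt1, which loads the helicase ring, had 57.9, 36.7 and 23.4 CPM in naive cells and 100 to 137 CPM in the 18 h libraries, a difference of 1.57 ± 0.186. Gmnn, the inhibitor that binds Cdt1, had 21.6, 11.2 and 7.97 CPM in naive cells, 95.7, 101 and 80.3 CPM at 18 h at the low concentration and 177, 196 and 173 CPM at the high one, a difference of 3.32 ± 0.187. Whether the 2 genes rose by different ratios was not tested. Cdc6, the loader that acts with Cdt1, had few counts in experiment 2 (0 in naive libraries and 17 over those at 18 h, at least 4.33-fold over the floor), and reached only 12.2 CPM in any library there.

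The 8 genes for polymerases and primase rose by 0.862 to 2.68, with Pold1, the catalytic subunit of polymerase delta, at 72.2 to 90.3 CPM in naive cells and 197 to 287 CPM at 18 h (1.47 ± 0.181). The 8 genes for the clamp, its loader and the lagging strand rose by 0.651 to 3.11. Pcna, the clamp, had 64.0, 78.4 and 90.3 CPM in naive libraries, 312, 342 and 339 CPM at the low concentration and 553, 445 and 574 CPM at the high one (2.41 ± 0.196). The 4 genes for deoxynucleotides rose by 3.09 to 3.39. Rrm1, the large subunit of ribonucleotide reductase, had 13.1, 14.3 and 11.7 CPM in naive cells, 82.5, 64.3 and 87.4 CPM at the low concentration and 152, 145 and 177 CPM at the high one (3.09 ± 0.186). Chaf1b, a subunit of the factor that places histones behind the fork, had 24.7 to 31.9 CPM in naive cells and 52.1 to 91.6 CPM at 18 h (1.21 ± 0.212).

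Of the single-strand binding proteins, Rpa2 had 34.0, 60.3 and 48.9 CPM in naive cells and 123 to 202 CPM at 18 h, a rise of 1.71 ± 0.164. Rpa1, the large subunit of the same complex, had 87.2, 89.6 and 103 CPM in naive cells, 92.8, 83.7 and 55.3 CPM at the low concentration and 124, 95.5 and 119 CPM at the high one, and its difference of 0.0186 ± 0.158 did not pass (adjusted p = 0.932). Of the 39 members, Rpa1 was the one without a call at this step.

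Genes outside the members were counted in the same comparison. Of 30 other fork and origin genes tested, 26 rose and 1 fell, with Cdc45, the partner of GINS, higher by 5.9 ± 0.363. Of 20 E2F and G1 to S control genes, 13 rose and 4 fell, and E2f1 was higher by 3.2 ± 0.366. Of 11 other deoxynucleotide genes, 8 rose and 2 fell, and Samhd1, which breaks deoxynucleotides down, fell by 2.58 ± 0.136 on the log2 scale. Of 16 genes of replication-coupled chromatin and repair, 12 rose and 0 fell. Of 22 mitosis genes, 18 rose and 2 fell, but their group means at 18 h had a median of 4.49% (low) and 6.98% (high) of each gene's highest group mean, against 42.9% and 73% for the members.

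**Figure D2:**
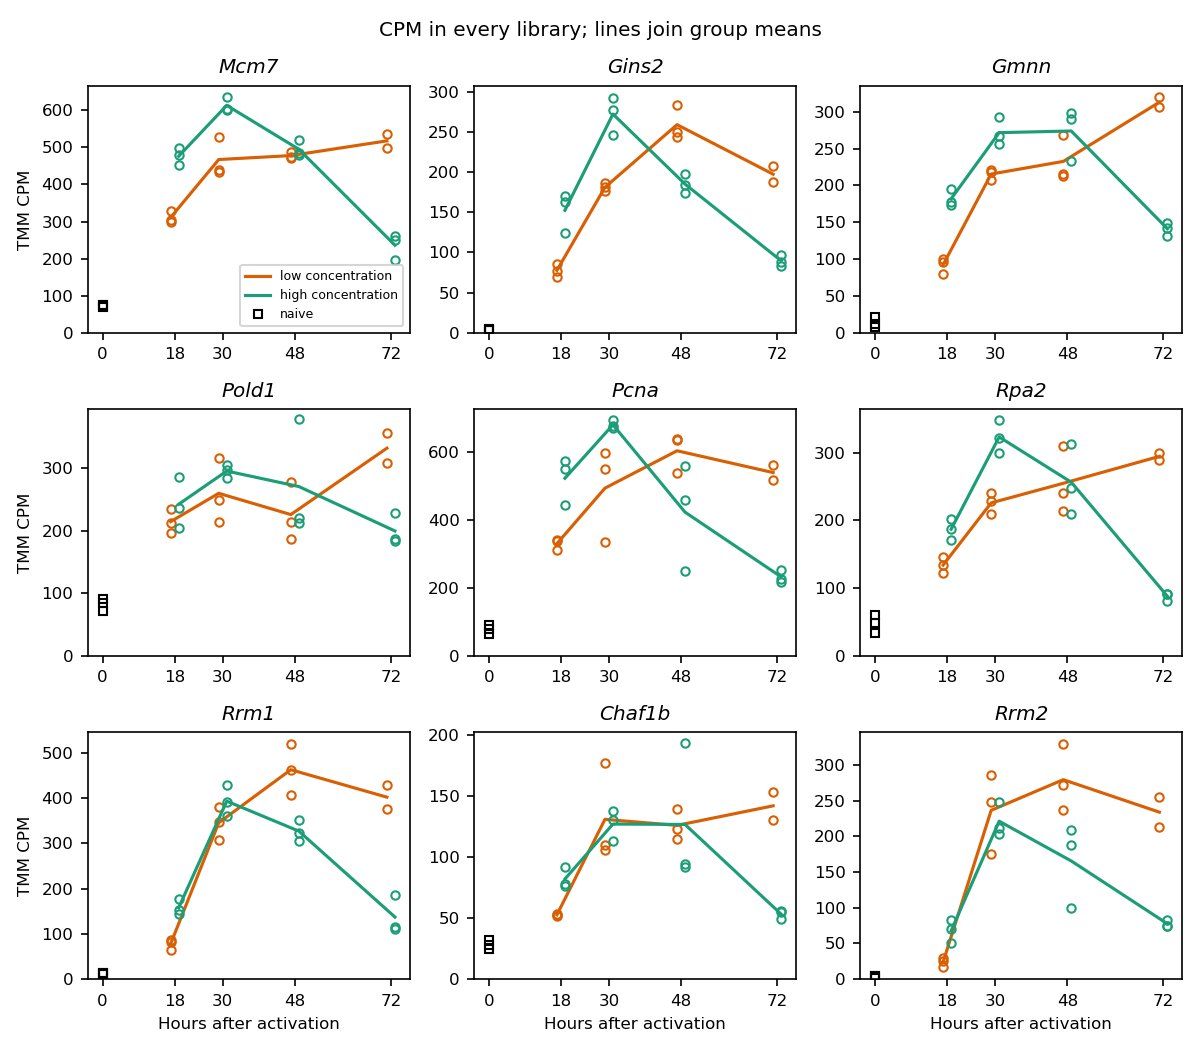
TMM CPM of 9 members in every naive, high concentration and low concentration library of experiment 2, against hours after activation (points of the high and low concentrations are shifted by 1 h to either side; lines join group means). For Rrm1 the high concentration libraries are above the low ones at 18 h and below them at 48 and 72 h.

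From 18 to 30 h, the rise went on at the low concentration for 32 of the 39 members (median 0.927, range 0.0496 to 3.36; 7.66% of all genes rose and 4.07% fell). At the high concentration 13 rose (median 0.411, range -0.233 to 1.72; 10.5% of all genes rose and 7.4% fell), and 0 members fell at either. The genes with the smallest adjusted p at both concentrations were Tk1, Rrm1 and Rrm2, all of deoxynucleotide synthesis. All 18 h libraries have title number 1 and all 30 h libraries number 2, so within these groups the number and the time cannot be told apart. With the number as a term in the fit over all groups, 25 members rose at the low concentration and 9 at the high one.

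Rrm2, the small subunit of ribonucleotide reductase, went from 17.5, 29.1 and 25.0 CPM at 18 h to 175, 286 and 248 CPM at 30 h at the low concentration (3.36 ± 0.253). At the high concentration it went from 69.9, 50.7 and 82.4 CPM to 203, 212 and 249 CPM (1.72 ± 0.21). Tk1, which salvages thymidine, rose by 2.71 ± 0.204 and 1.67 ± 0.17 at the low and high concentrations, and Rrm1 by 2.15 ± 0.164 and 1.32 ± 0.15. Rpa1 rose to 294, 175 and 184 CPM at the low concentration (1.45 ± 0.183).

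Of the 6 helicase genes, 0 were called at the high concentration (range -0.233 to 0.365), with Mcm7 at 601, 603 and 638 CPM at 30 h (0.365 ± 0.137, adjusted p = 0.0542). At the low concentration 5 of 6 rose (range over all 6 of 0.262 to 0.619), and Mcm7 reached 528, 439 and 435 CPM. A test of the difference between these 2 changes called 0 of the 6 in edgeR, and 0 at an unadjusted p under 0.05 (range -0.495 to -0.218). Gins2 rose by 1.21 ± 0.147 at the low concentration and by 0.833 ± 0.135 at the high one, Gmnn by 1.21 ± 0.162 and 0.576 ± 0.15, and Rpa2 by 0.757 ± 0.168 and 0.789 ± 0.16. Chaf1b rose by 1.31 ± 0.222 and 0.631 ± 0.204. With the title number as a term, Gmnn (adjusted p = 0.0729) and Chaf1b (0.0924) were not called at the high concentration, nor Rpa2 at the low one (0.0752). Pold1 had 305, 285 and 298 CPM at the high concentration and 317, 214 and 249 CPM at the low one at 30 h and was not called at either. Pcna rose at the low concentration by 0.584 ± 0.195, where replicate 1 had 335 CPM and the other libraries 597 and 552 CPM. The calls of Pcna at the low concentration (without low replicate 1, 2 or 3 at 18 h or 2 or 3 at 30 h) and of Chaf1b at the high one (without high replicate 1 or 2 at 18 or 30 h) were lost without any 1 of these libraries. Pcna was also not called at the low concentration with the replicate number as a block in the fit (adjusted p = 0.0515). Over the same interval 20 of the 22 mitosis genes rose at each concentration, with medians of 3.38 (low) and 2.88 (high), and Birc5, a mitotic chromosome protein, rose by 4.05 ± 0.203 and 3.22 ± 0.164.

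From 30 to 48 h few members were called at the low concentration and more at the high one. The difference between these 2 changes was not tested. The median was -0.285 at the high concentration (range -0.83 to 0.855) and 0.0163 at the low one (range -0.44 to 0.517). At the high concentration 8 fell and 0 rose (13.3% of all genes fell and 16.7% rose). They were Mcm4, Mcm5, Gins2, Orc6, Pcna, Rfc3, Rfc5 and Tk1, with Mcm4 lower by the most (fell by 0.83 ± 0.168 on the log2 scale). In 16 members every high concentration library at 48 h was below every one at 30 h, against 18.6% of all genes. In 1 member every such library was above, against 21.7% of all genes. Gins2 there went from 293, 278 and 247 CPM to 174, 198 and 184 CPM. At the low concentration 2 rose and 0 fell (5.73% of all genes rose and 3.55% fell): Gins2 by 0.517 ± 0.131, to 284, 250 and 244 CPM, and Rrm1 by 0.422 ± 0.142, to 407, 462 and 520 CPM. Replicate 1 of the high concentration at 48 h stood apart from its group for several members: Pcna was at 250 CPM there and 561 and 460 in the others, Rrm2 at 99.9 against 188 and 209, and Chaf1b at 194 against 94.8 and 92.0. Without it Pcna was no longer called, Mcm5 was not called without high replicate 3 at 30 h, and Rfc5 was not called without high replicate 1 or 2 at 30 h or 2 or 3 at 48 h. Rrm1 was not called at the low concentration without replicate 2 or 3 of either time or with the title number as a term (adjusted p = 0.162). The same held with no filter (0.0886), the replicate number as a block (0.0566) or the compared groups alone (0.0888). Rfc5 at the high concentration also lost its call with no filter (0.0615) or the compared groups alone (0.0902).

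From 48 to 72 h the concentrations parted further. At the high concentration 35 of the 39 members fell and 0 rose, with a median of -0.999 and a range of -1.92 to -0.29, while 12% of all genes fell and 11.5% rose. In 33 members every library at 72 h was below every library at 48 h, which held for 16.9% of all genes. Pold1, Pold2, Pole2 and Tyms did not pass. The 3 libraries at 48 h have title number 2 and the 3 at 72 h number 1, so within these groups the number and the time cannot be told apart, and with the number as a term over all groups 30 members fell.

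Fen1, the flap nuclease of the lagging strand, fell by 1.39 ± 0.148 on the log2 scale, Rpa2 by 1.53 ± 0.171 and Rrm1 by 1.26 ± 0.152, the smallest adjusted p of the members. Rpa2 went from 313, 247 and 209 CPM at 48 h to 90.8, 92.1 and 81.4 CPM at 72 h. Mcm7 went from 521, 486 and 479 to 261, 196 and 251 CPM, Gins2 from 174, 198 and 184 to 83.7, 97.2 and 87.9 CPM, and Gmnn from 233, 290 and 299 to 149, 132 and 142 CPM. Every one of these sets is separate from its partner. Pcna fell by 0.868 ± 0.196 on the log2 scale and Chaf1b by 1.23 ± 0.215. Pold1 differed by -0.432 ± 0.189 (adjusted p = 0.0934), with 380, 213 and 221 CPM at 48 h and 184, 188 and 228 CPM at 72 h.

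At the low concentration 3 members rose and 2 fell from 48 to 72 h, with a median of -0.04, while 14.2% of all genes rose and 11.6% fell. Gmnn (0.429 ± 0.162), Lig1, the ligase of the lagging strand (0.556 ± 0.199), and Pold1 (0.555 ± 0.204) rose, and Prim2, the large primase subunit, fell by 0.888 ± 0.222 and Gins2 by 0.392 ± 0.148 on the log2 scale. Mcm7 had 475, 487 and 472 CPM at 48 h and 536 and 500 CPM at 72 h, and Rrm1 407, 462 and 520 CPM and then 428 and 376 CPM. The 5 calls fell to 0 without low replicate 1 at 72 h and to 1 without low replicate 2 at 72 h, or 2 or 3 at 48 h. With the title number as a term, Gmnn, Lig1 and Pold1 were not called, nor Gmnn and Gins2 with no filter or Pold1 in DESeq2. A block for the replicate number also lost Gmnn (adjusted p = 0.0629) and Lig1 (0.0567). Of the 22 mitosis genes, 10 rose and 0 fell at this step at the low concentration, and 0 rose and 5 fell at the high one.

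Over the 4 times, 32 members had their highest group mean at 30 h at the high concentration, 2 at 18 h, 5 at 48 h and 0 at 72 h, and 36 had their lowest at 72 h. At the low concentration 0 members were highest at 18 h, 11 at 30 h, 13 at 48 h and 15 at 72 h, and 38 were lowest at 18 h. These counts describe the members alone, with no share over all genes beside them. The low concentration mean at 72 h rests on 2 libraries. The median level at 72 h was 38.5% of a gene's highest group mean at the high concentration and 94.1% at the low one.

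**Figure D3:**
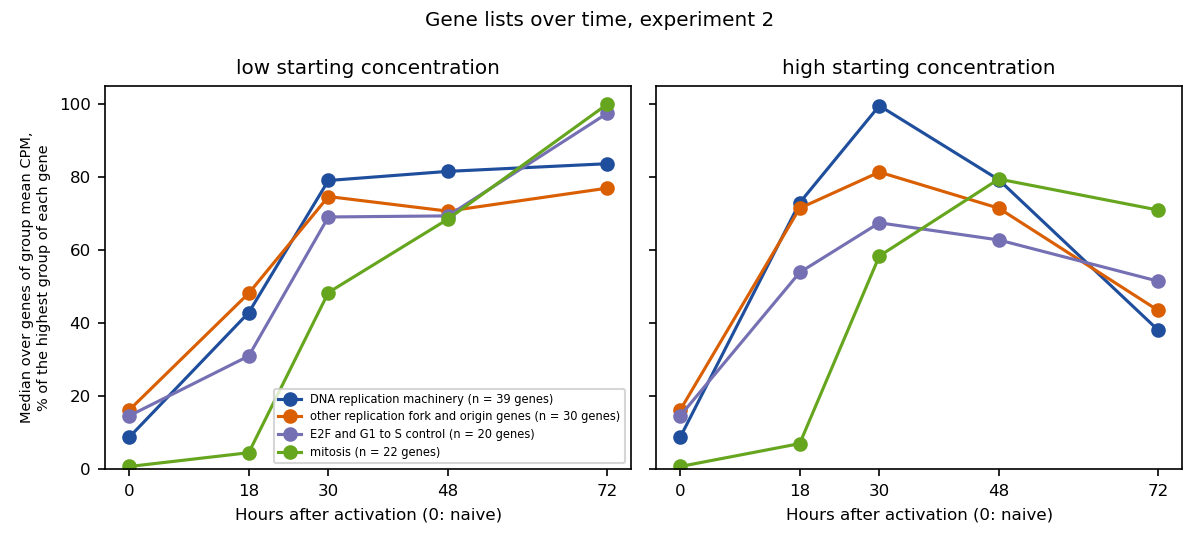
Median over the genes of a list of the group mean CPM, as a percent of each gene's highest group mean over naive and concentration groups of experiment 2, against hours after activation. The members stand at 42.9% (low) and 73% (high) at 18 h, when mitosis genes are at 4.49% and 6.98%, and at 83.7% and 38.1% at 72 h, when mitosis genes are at 100% and 71%.

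The concentrations were then set against each other at each time. At 18 h, 21 of 39 members were higher at the high concentration and 0 lower (median 0.79, range -0.00476 to 1.77, the highest being Cdc6, which had 14 counts over the high and 3 over the low libraries), when 1.15% of all genes were higher and 0.725% lower. In 33 members every high concentration library was above every low one, which held for 11.4% of all genes.

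By role at 18 h, 5 of 6 helicase genes, 3 of 5 GINS and Mcm10 genes, 2 of 4 licensing genes (Gmnn and Orc6), 3 of 8 polymerase and primase genes, 5 of 8 clamp, loader and lagging strand genes, 3 of 4 deoxynucleotide genes and 0 of the 4 genes for single-strand binding and chromatin assembly were called. The smallest adjusted p belonged to Tk1 (31.4, 25.5 and 16.1 CPM at the low concentration against 74.5, 86.5 and 67.8; 1.57 ± 0.217, adjusted p = 1.95e-06). Gins2 followed with 0.967 ± 0.151 and Rrm1 with 1.02 ± 0.168. Gmnn differed by 0.968 ± 0.165 and Mcm7 by 0.612 ± 0.141. Without 1 library the count of 21 ranged from 14 to 18. Pcna missed the threshold with 0.664 ± 0.197 (adjusted p = 0.0673) although its 3 high libraries were above its 3 low ones. Pold2, a polymerase delta subunit, had means of 172.1 and 172.9 CPM.

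At 30 h, 3 members were higher at the high concentration and 0 lower (4.63% of all genes were higher and 3.93% lower): Gins2 (0.587 ± 0.131), Tk1 (0.53 ± 0.157) and Rpa2 (0.517 ± 0.156). Rpa2 had 240, 209 and 228 CPM at the low concentration and 322, 349 and 299 CPM at the high one, with no overlap. The 3 calls became 1 without high replicate 1 or low replicate 2 and 7 without low replicate 1, where Rpa2 was also lost without high replicate 2 or low replicate 3 and Tk1 without high replicate 3. The difference between concentrations became smaller from 18 to 30 h in a test of the change for 4 members, when 0.52% of all genes changed in that direction and 0.379% in the other: Rrm2 (by -1.64 ± 0.335), Pole, the catalytic subunit of polymerase epsilon (-1.45 ± 0.354), Tk1 (-1.04 ± 0.269) and Rrm1 (-0.828 ± 0.22). That count was 1 to 3 without any 1 of the 12 libraries involved. Rrm1 kept its call only without high replicate 2 at 18 h, and Tk1 only without low replicate 1 at 18 h. Pole lost its call without high replicate 1 or 3 or any 1 low replicate at 18 h. The same held without high replicate 3 or low replicate 1 at 30 h. Rrm2 lost its call only without low replicate 1 at 18 h. Rrm1 was not called with RLE scaling (adjusted p = 0.0608), with no filter (0.0771) or with the replicate number as a block (0.0569).

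At 48 h, 7 members were lower at the high concentration and 0 higher (12% of all genes were lower and 13.9% higher): Gins2, Pcna, Prim1, Prim2, Rfc3, Rrm1 and Rrm2. Rrm2 differed most (-0.742 ± 0.191), and Rrm1 by -0.5 ± 0.143, with 306, 323 and 353 CPM at the high concentration and 407, 462 and 520 CPM at the low one. At this time the high concentration libraries all have title number 2, and of the low ones replicate 1 has it. With that 1 low library alone, 1 member was called, with the number as a term in the fit 6, with the 2 groups fitted alone 1, and without low replicate 3 the count was 3. Pcna was also lost without high replicate 1 or low replicate 2, Prim1 and Prim2 without high replicate 1, Rfc3 without low replicate 2, and Rrm1 without low replicate 3.

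At 72 h, 35 members were lower at the high concentration and 0 higher (median -1.14, range -1.8 to -0.258), when 13.5% of all genes were lower and 13% higher. In 37 members both low concentration libraries were above all 3 high ones, which held for 28.1% of all genes. All 6 helicase genes, all 5 of the GINS and Mcm10 role, all 8 of the clamp, loader and lagging strand, all 4 for deoxynucleotides and all 4 for single-strand binding and chromatin assembly were called, with 3 of 4 licensing and 5 of 8 polymerase and primase genes. Cdc6, Pola1, Prim2 and Pole2 did not pass. The high concentration libraries all have title number 1 and the low ones number 2, so this number and the concentration cannot be told apart at 72 h within that time.

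Rpa2 had 90.8, 92.1 and 81.4 CPM at the high concentration and 300 and 289 CPM at the low one, a difference of -1.74 ± 0.183 (adjusted p = 2.12e-10). Rrm1 had 110, 187 and 115 CPM against 428 and 376 CPM (-1.55 ± 0.164), and Mcm5 124, 163 and 169 CPM against 403 and 408 CPM (-1.42 ± 0.173). Mcm7 differed by -1.13 ± 0.154, Gins2 by -1.14 ± 0.154, Gmnn by -1.15 ± 0.166, Pcna by -1.21 ± 0.214, Chaf1b by -1.41 ± 0.231 and Pold1 by -0.735 ± 0.207. Mcm2 showed the largest difference (-1.8 ± 0.265), with 74.3, 72.3 and 74.9 CPM against 268 and 246 CPM. Pola1, the catalytic subunit of polymerase alpha, had 21.1, 20.7 and 26.8 CPM against 23.8 and 30.7 CPM, which overlap. Pold1 was not called without low replicate 1 or with the title number as a term, where 32 members were called.

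**Figure D4:**
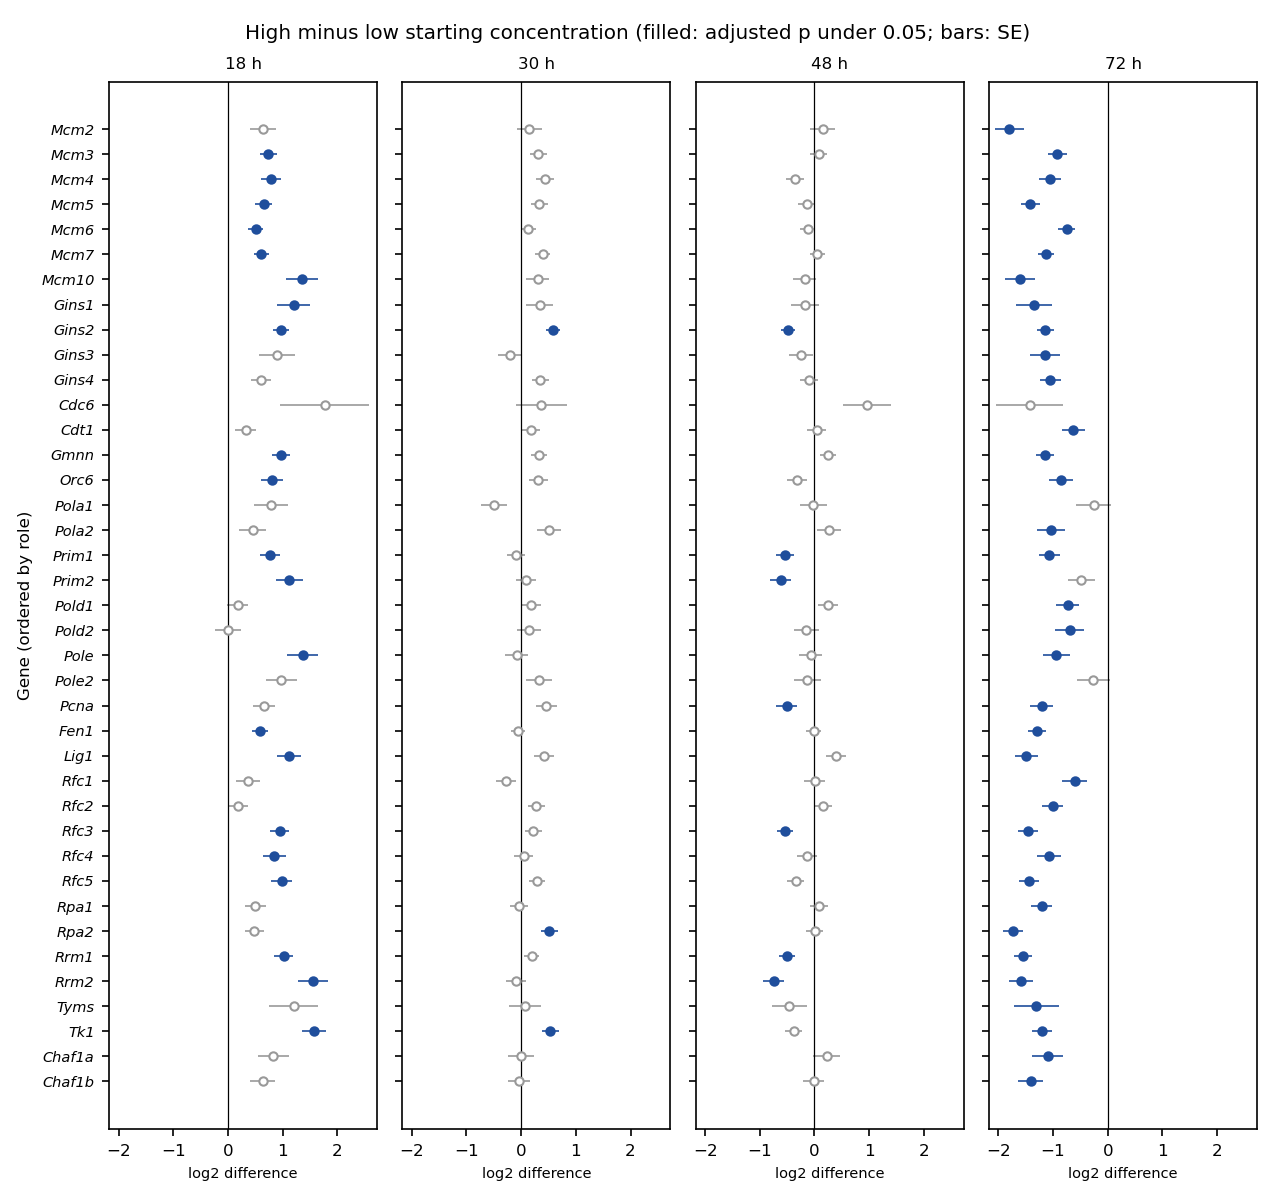
Log2 difference of high minus low starting concentration for each member at 18, 30, 48 and 72 h in experiment 2, with its SE as a bar (filled points have an adjusted p under 0.05). There are 21 filled points to the right of 0 at 18 h and 35 to the left of 0 at 72 h.

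The change of this difference from 18 to 72 h was tested directly and was below 0 for 37 of 39 members, and above 0 with a call for 0 (median -1.92), when 9.22% of all genes were called in that direction and 7.1% in the other. Pola1 and Pold2 did not pass. The smallest adjusted p belonged to Rrm1 (-2.57 ± 0.235), Gins2 (-2.11 ± 0.215) and Tk1 (-2.76 ± 0.284), and Mcm7 changed by -1.74 ± 0.209, Gmnn by -2.12 ± 0.234, Rpa2 by -2.22 ± 0.252, Chaf1b by -2.05 ± 0.328, Pcna by -1.88 ± 0.291 and Pold1 by -0.916 ± 0.284. Over the last interval alone, from 48 to 72 h, the change was called for 25 members (median -0.945; 7.89% of all genes in that direction and 4.68% in the other), with Rpa2 (-1.74 ± 0.242), Lig1 (-1.89 ± 0.277) and Gmnn (-1.39 ± 0.222) at the smallest adjusted p. That count was 16 without low replicate 1 at 72 h and 10 with the title number as a term in the fit. Pold1 lost its call in the change from 18 to 72 h without low replicate 1 or high replicate 2 at 18 h, or low replicate 1 or high replicate 1 at 72 h, and with the title number as a term.

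The other lists had these counts for high against low. At 18 h, 7 of 30 other fork and origin genes were higher (Cdc45 by 1.11 ± 0.213), 3 of 20 E2F and G1 to S genes (E2f1 by 1.26 ± 0.307), 0 of 11 other deoxynucleotide genes, 3 of 16 chromatin and repair genes (Nasp, a histone chaperone, by 0.652 ± 0.142) and 5 of 22 mitosis genes (Top2a by 1.5 ± 0.205), and 0 genes of any of these lists were lower. At 72 h the counts lower at the high concentration were 19 of 30 (Cdc45 -1.49 ± 0.201), 11 of 20 (Ccne1, the cyclin of S phase entry, -1.69 ± 0.256), 6 of 11 (Nme1 -1.95 ± 0.141), 10 of 16 (Nasp -1.44 ± 0.159) and 9 of 22 (Birc5 -1.38 ± 0.152), with 0 higher. Summed markers of CD8 and NK cells were 68 to 98 CPM at the high concentration and 49.7 to 63.5 CPM at the low one at 18 h, and 33.6 to 38.8 against 14.7 to 16.3 CPM at 72 h. Those of myeloid cells were 5.16 to 23.1 CPM at the high and 11.2 to 11.3 CPM at the low concentration at 72 h, and 5.46 to 6.72 CPM at the high one at 48 h. Of the 2 myeloid markers tested, Csf1r was called higher and Cd68 was not called, both at 72 h against the low concentration and at 72 against 48 h at the high one. Of the 2 CD8 and NK markers tested, Cd8b1 was called higher at the high concentration at 72 h. Those of B cells were at most 14.9 CPM and those of myeloid cells at most 34 CPM in every library of experiment 2. The part of these cells in the differences was not tested.

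CD62L, the lymph node homing receptor, separates cells of the same culture. At 48 h few members were called between CD62L positive and negative cells in either experiment. In experiment 2, 3 were higher in positive cells (Gins3 0.713 ± 0.214, Rrm1 0.464 ± 0.142 and the clamp loader subunit Rfc4 0.541 ± 0.178) and Pola2 was lower (-0.764 ± 0.221), when 7.23% of all genes were higher and 7.28% lower. In 8 members every positive library was above every negative one and in 4 below, against 15.7% and 14.3% of all genes. The members took 0.785 to 0.832% of counts in positive and 0.736 to 0.827% in negative libraries. All 4 calls were lost without positive replicate 3 and without negative replicate 2, 2 were left without positive replicate 1 or 2, and Rrm1 was lost without negative replicate 3. The positive libraries have title number 1 and the negative ones 1, 2 and 2, and with the number as a term Rrm1 and Pola2 were not called, nor with no filter Gins3, Rfc4 and Rrm1. In experiment 1, Mcm7 (0.851 ± 0.158) and Gins1 (0.593 ± 0.178) were higher and 0 of 36 lower, when 4.05% of all genes were higher and 2.46% lower. There every positive library was above every negative one in 12 members and below in 1, against 13.7% and 12.5% of all genes. The members took 1.13 to 1.2% of counts in positive and 0.999 to 1.05% in negative libraries of experiment 1. Mcm7 had 381, 306 and 339 CPM in positive cells and 168, 198 and 202 CPM in negative cells there. Gins1 was not called without negative replicate 2 or 3 or any 1 positive replicate, or with no filter (adjusted p = 0.0548).

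At 72 h some members were lower in positive cells. In experiment 1, 20 of 36 members were lower in CD62L positive cells and 0 higher (median -0.535), when 9.35% of all genes were lower and 10.1% higher. In 25 members every positive library was below every negative one, against 16.9% of all genes. In experiment 2, 6 of 39 were lower and 0 higher (median -0.392), when 0.844% of all genes were lower and 0.682% higher: Mcm3, Mcm6, Mcm7, Gins2, Rfc3 and Rpa2. There 26 members had every positive library below every negative one, against 9.6% of all genes.

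Some markers of other cell types differed in experiment 1 at 72 h as well. Of 7 myeloid markers tested 2 were called higher in CD62L positive cells (Lyz2 and Lyz1) and of 6 CD8 and NK markers 1 (Cd8b1), with medians of 1.61 and 1.42 and 0 lower. Summed myeloid markers were 70 to 84.9 CPM in positive and 13.3 to 39.4 CPM in negative libraries, B cell markers 15.9 to 21.5 and 10.3 to 15 CPM, and CD8 and NK markers 62.2 to 66.2 and 24.8 to 34.2 CPM. In experiment 2 at 72 h these sums were 9.57 to 34 and 5.74 to 15.9 CPM (myeloid), 6.84 to 8.42 and 2.43 to 12.3 CPM (B cell) and 25.3 to 32.1 and 13.1 to 21.1 CPM (CD8 and NK). The part of these cells in the CD62L differences was not tested.

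Gins2 had the smallest adjusted p in both experiments. In experiment 1 it had 153, 151 and 154 CPM in positive and 262, 300 and 279 CPM in negative cells (-0.876 ± 0.135, adjusted p = 1.12e-05). In experiment 2 it had 98.5, 78.8 and 88.7 CPM against 140, 139 and 136 CPM (-0.64 ± 0.142, adjusted p = 0.0077). Mcm7 was lower by -0.549 ± 0.169 and -0.611 ± 0.139, with 298, 283 and 358 CPM in positive and 497, 553 and 386 CPM in negative cells of experiment 2. Mcm5 (-0.605 ± 0.117) and Fen1 (-0.616 ± 0.131) came next in experiment 1, and Rfc3, a clamp loader subunit, in experiment 2 (-0.72 ± 0.167). Rrm1 was lower in experiment 1 (-0.548 ± 0.123), and in experiment 2 its libraries overlapped (287, 260 and 293 CPM against 288, 292 and 303 CPM). The 6 calls of experiment 2 fell to 0 without positive replicate 2, to 2 without positive replicate 1 or 3 or negative replicate 2, and to 3 without negative replicate 1, and were 10 in DESeq2. In experiment 1 the count was 15 to 26 without any 1 library, and Mcm7 was not called without negative replicate 1 or positive replicate 2.

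**Figure D5:**
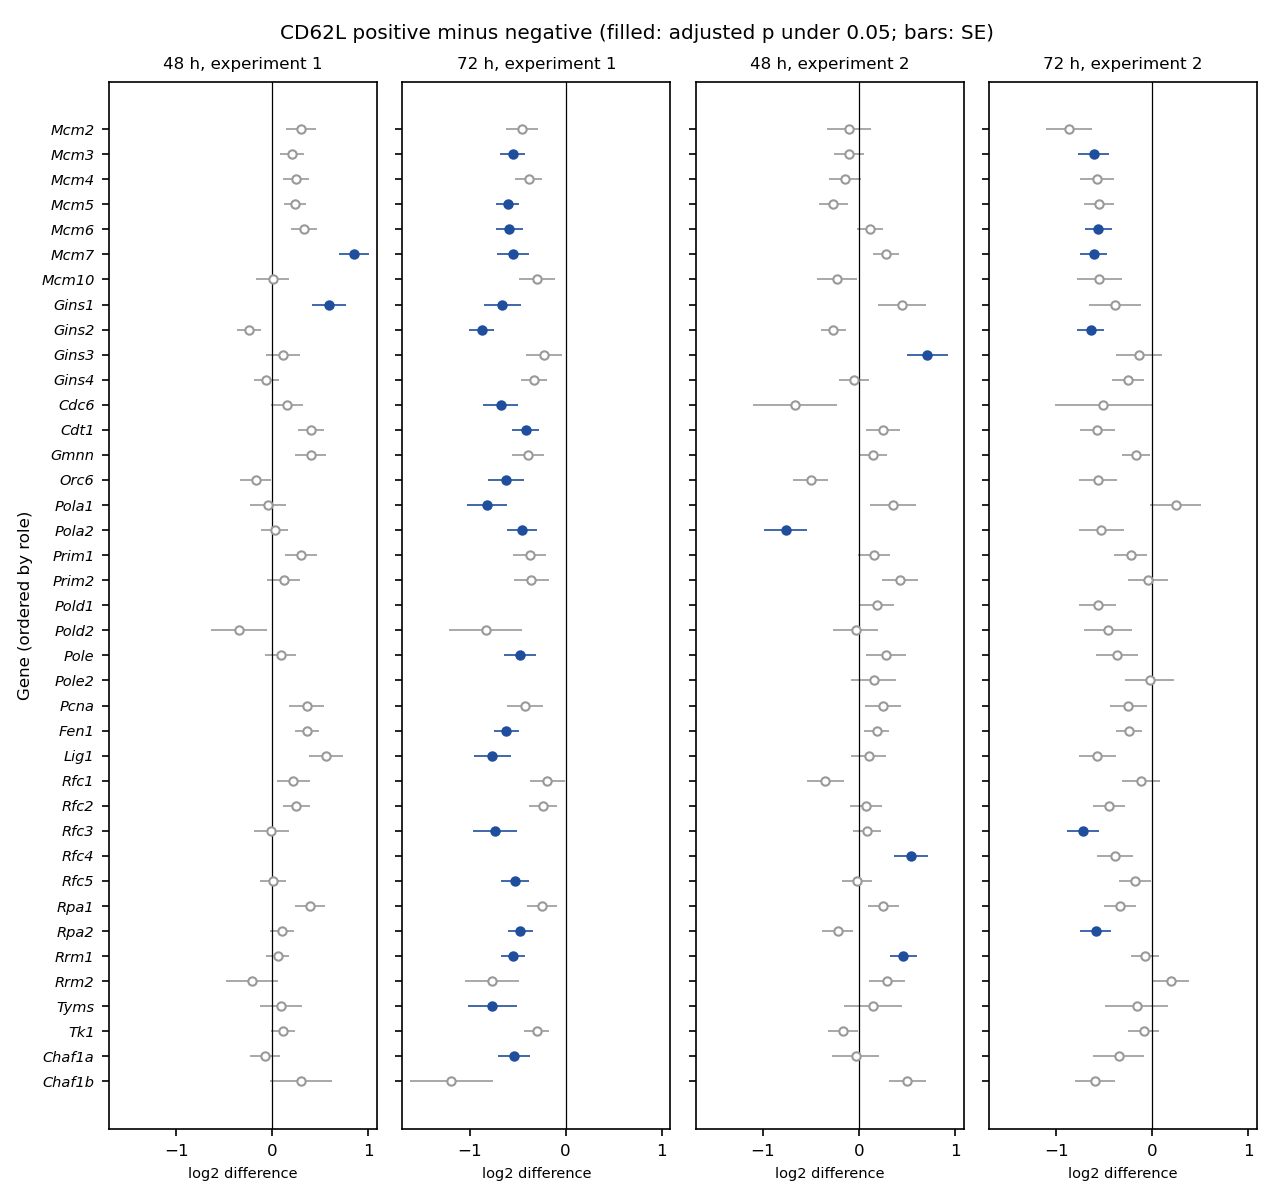
Log2 difference of CD62L positive minus negative cells for each member at 48 and 72 h in both experiments, with its SE as a bar (filled points have an adjusted p under 0.05; members not tested in experiment 1 have no point there). There are 20 filled points to the left of 0 at 72 h in experiment 1 and 6 in experiment 2.

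The change of this difference from 48 to 72 h passed for 8 of 36 members in experiment 1 (1.29% of all genes in that direction and 0.591% in the other), and for 2 of 39 in experiment 2 (0.704% and 0.595%), all below 0. Mcm7 was called in both (-1.4 ± 0.231 and -0.893 ± 0.194), with Fen1 (-0.978 ± 0.179) and Mcm5 (-0.844 ± 0.164) in experiment 1 and Chaf1b (-1.1 ± 0.285) in experiment 2. Chaf1b was not called without any 1 of several libraries (negative replicate 2 or 3 or any 1 positive replicate at 48 h, negative replicate 2 or 3 or positive replicate 1 or 3 at 72 h) or with the title number as a term (adjusted p = 0.0621), Mcm7 of experiment 2 was not called with the compared groups alone (0.0522), and in experiment 1 the count was 14 without positive replicate 3 at 72 h. Of the mitosis genes, 0 of 22 were lower in positive cells at 72 h in either experiment, and in experiment 2, 11 of 22 were higher in positive cells at 48 h and 4 at 72 h.

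In the mean of both sorted fractions, 28 of 36 members fell from 48 to 72 h in experiment 1 (25.3% of all genes fell and 27.2% rose) and 27 of 39 in experiment 2 (18.6% fell and 19.1% rose), and 0 rose in either. In positive libraries of experiment 1 the members took 1.13 to 1.2% of counts at 48 h and 0.615 to 0.665% at 72 h. In negative ones they took 0.999 to 1.05% and 0.934 to 0.96%. The positive shares of experiment 2 were 0.785 to 0.832% and 0.52 to 0.526%, and the negative ones 0.736 to 0.827% and 0.646 to 0.725%. Mcm7 of experiment 1, called here, had means of 342 and 159 CPM in positive but 189 and 227 CPM in negative cells. Each fraction alone was not tested. In the mean of the fractions, Gins2 fell by 0.866 ± 0.0916 and by 1.06 ± 0.0971 on the log2 scale in experiments 1 and 2. In experiment 1 it was joined by Orc6, a subunit of the origin recognition complex (fell by 1.04 ± 0.123), and Mcm3 (fell by 0.642 ± 0.0894), and in experiment 2 by Rfc3 (fell by 1.01 ± 0.112) and Rfc5 (fell by 0.708 ± 0.114). Gmnn was not called in either experiment, with 260, 231 and 276 CPM in CD62L positive and 276, 310 and 277 CPM in negative cells at 72 h in experiment 2, and 288, 309 and 277 CPM and 263, 268 and 258 CPM at 48 h.

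In experiment 1, all 36 members tested were higher in the activated cells at 48 h than in naive cells (median 3.18, or 3.12 with Chaf1b at its lower bound; 30.3% of all genes were higher and 31.8% lower). Mcm5 had 62.1, 93.4 and 87.1 CPM in naive libraries and 817 to 1075 CPM in the 6 libraries at 48 h (3.44 ± 0.166), Rrm1 124, 67.9 and 87.1 CPM against 761 to 917 CPM (3.35 ± 0.176), and Gins2 31.1, 29.7 and 18.7 CPM against 335 to 426 CPM (3.95 ± 0.236). Cdc6, scarce in experiment 2, had 91.4 to 134 CPM at 48 h here, with 2 counts in the naive libraries (ratio 34.5, exact 95% interval 9.51 to 285, counting error only). Rrm2 had 3 naive counts (ratio 66, interval 22.5 to 320), and Chaf1b had 0 and was at least 8.45-fold higher over the floor of 3 counts.

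Without activation, 4 of 36 members were higher in mature (CD44 positive, CD62L negative) than in naive cells and 0 lower (median 0.415, or 0.398 with Chaf1b, at 0 naive counts, at its bound), when 7.82% of all genes were higher and 8.59% lower. Rrm1 had 137, 137 and 136 CPM in mature and 124, 67.9 and 87.1 CPM in naive libraries (0.691 ± 0.216, adjusted p = 0.0249), and the others were Mcm4 (0.98 ± 0.33), Pola1 and Cdc6, of which the naive libraries held 1 and 2 counts. The mitosis list had 8 of 22 higher and 0 lower in the same comparison. Summed B cell markers were 900 to 1630 CPM in naive and 554 to 626 CPM in mature libraries, and myeloid markers 636 to 1410 and 255 to 269 CPM, while CD8 and NK markers were 155 to 352 and 210 to 237 CPM, and at 48 h the B cell markers were 5.33 to 17.5 CPM. The part of these cells in the 2 comparisons with naive cells of experiment 1 was not tested. Without naive replicate 1, the library with the fewest counts, Mcm4 and Cdc6 lost their calls, without naive replicate 2 Rrm1, Mcm4 and Cdc6 did, and without naive replicate 3 Rrm1, Pola1 and Cdc6 did. DESeq2 did not call Mcm4, Pola1 or Cdc6, and Mcm4 and Cdc6 also lost theirs without a mature library (replicate 1 for Mcm4, 2 or 3 for Cdc6). Cdc6 was also not called with no filter (adjusted p = 0.0545) or with the replicate number as a block (0.0602). In the comparison of 48 h with naive cells the count was 36 to 37 without any 1 library.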

How the data were processed

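Per the labels, 3′ end RNA libraries were made with poly-T primers that carry molecular identifiers and amplified linearly with T7 polymerase. Per the submitters' processing notes, the tools named are HTSeq 0.9.1, STAR 2.5.2b, HISAT 0.1.5, bcl2fastq 2.17.1.14 and FastQC 0.11.7, and the build is mm9. Which aligner made which table, identifier collapsing, annotation and strand setting were not given in the sources used here. In RefSeq 15 of the 39 members overlap another gene, whose reads cannot be told apart without strand. The 10 members that overlap a protein-coding gene are Mcm7, Gins2, Fen1, Lig1, Pold2, Pole2, Rfc4, Rpa1, Tk1 and Chaf1a. The authors deposited raw counts per gene symbol and library. Naive and mature cells of experiment 1 were enriched on magnetic columns and other cells sorted, per the labels.

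Each experiment was fitted on its own with edgeR 4.0.16 under R 4.3.3, using TMM scaling, a coefficient for each group, filterByExpr (minimum count 10) and the robust quasi-likelihood test, on 8961 and 9239 genes, with Benjamini-Hochberg adjustment over all of them within each comparison at 0.05. SE is the log2 difference over the root of F. Against 0 naive counts, folds are lower bounds over 3 counts per group. With 1 to 3 counts the ratio and its exact 95% interval are given. The 24 comparisons include 4 tests of change added after the data were seen (18 to 30 h, 48 to 72 h, and CD62L in both experiments). Members and lists were chosen with earlier results of these data known. Named are, per comparison, where called or by CPM, the 3 members with the smallest adjusted p, those called against the majority, the member of each role with the highest mean CPM, and a few fixed genes. Other members named by value (largest or smallest in a role, or near a threshold), and which genes of other lists are named, were chosen after values were seen. Alternatives were DESeq2 1.42.0, RLE scaling, no filter, a replicate block, the title number, the compared groups alone and leaving out each library. The fit was also run on simulated counts that gave all genes the same spread. That run does not show how the fit does where spread differs between genes, and no result here rests on it.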

Additional observations from a re-analysis of the deposited data

Results flagged for a closer look

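The difference between the high and low concentrations changed between 18 and 72 h for 37 of the 39 members by a test of that change itself (edgeR's quasi-likelihood test), all in the direction of lower at the high concentration. Of the 3 members with the smallest adjusted p, Rrm1 changed by -2.57, Gins2 by -2.11 and Tk1 by -2.76 on the log2 scale. At 72 h every high concentration library has title number 1 and every low one number 2, at 18 h all have number 1, and with this number as a term 35 members were called. That term is estimated from other groups, which hold both numbers. It therefore does not separate the number from the concentration at 72 h.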

How the results depend on the processing

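Scaling by RLE left each count of called members within 1.5 times. The counts for 18 h against naive, 30 against 18 h, 72 against 48 h at the high concentration, high against low at 18 and 72 h and their change, the sorted cells at 72 against 48 h, and 48 h against naive stayed within 1.5 times in every setting run. DESeq2 called 6 members for CD62L at 48 h and 15 for its change in experiment 1, 5 for high against low at 30 h, 7 for its change from 18 h, 10 for CD62L at 72 h and 6 for its change in experiment 2. With no filter the counts were 14 for the CD62L change in experiment 1, 1 for 48 against 30 h and 3 for 72 against 48 h at the low concentration, and 1 for CD62L at 48 h in experiment 2. With the title number as a term they were 1 and 2 for those steps at the low concentration, 2 for CD62L at 48 h and 10 for the change of concentration from 48 to 72 h. With the compared groups alone they were 5 for CD62L at 48 h in experiment 1, 1 for 48 against 30 h at the low concentration, 1 for high against low at 48 h (also 1 with the low library of title number 2 alone), 11 for CD62L at 72 h in experiment 2 and 7 for the change from 18 to 30 h. The causes of these moves were not tested.

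With all groups pooled, the replicate numbers did not pair the libraries. Deviations correlated over 0.1 in 7 of 45 same-numbered pairs in experiment 1 and 19 of 222 in experiment 2. Of the libraries, 5 of 18 and 10 of 38 correlated best with their own number. Pairing of CD62L positive with negative cells of the same time was not checked on its own. At 72 h in experiment 1, replicate 3 stood apart in both fractions. Its chi-square per degree of freedom was 3.66 and 3.73 against the other negative libraries, with 1.59 between those. For positive libraries it was 3.69 and 3.6, with 1.54. A replicate block gave 1 call for 48 against 30 h and 3 for 72 against 48 h at the low concentration, with all other counts within 1.5 times.

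Without 1 library, counts ranged from 1 to 2 for CD62L at 48 h and 8 to 14 for its change in experiment 1, 1 to 4 for mature against naive, 1 to 7 for high against low at 30 h, 3 to 8 at 48 h, 1 to 3 for the change from 18 to 30 h and 16 to 25 from 48 to 72 h, 1 to 3 for 48 against 30 h and 0 to 4 for 72 against 48 h at the low concentration, and 0 to 6 for CD62L at 48 h, 0 to 5 at 72 h and 1 to 3 for its change in experiment 2. Rpa1 at 18 h against naive, not called in any setting, was 0.0186 and was -0.000174 with the replicate block, -0.0361 with the compared groups alone and -0.0629 to 0.101 without 1 library. Of 157 named values, 228 of 2164 recomputations lost the call. Naive replicate 1 of experiment 1 limits depth, and where a low group at 72 h had 1 library left, it was assumed to vary like the other groups.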
